A study of Homo sapiens with 9 samples.

Results

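The genes described here encode the extracellular and membrane parts of transforming growth factor beta (TGF-beta) signalling: the ligands TGFB1, TGFB2 and TGFB3, the receptors TGFBR1, TGFBR2 and TGFBR3, the co-receptor ENG, the decoy receptor BAMBI, and the latency proteins LTBP1 and LTBP3. These 10 genes were chosen by symbol, with earlier results of these data known. All 10 were matched by Ensembl identifier among the 51796 genes of the count table. RNA had been sequenced from A549 cells, an established human lung adenocarcinoma line grown in RPMI with serum. Every group carried a stable short hairpin RNA and was kept under puromycin, so the controls shared the vector selection with the knockdowns. The 3 groups differed in the target of the hairpin, which was GFP in the control, PRMT5 in one knockdown and MEP50 in the other, each with 3 libraries that the labels call biological replicates. PRMT5 methylates arginines symmetrically, and MEP50 (gene symbol WDR77) binds PRMT5 and its substrates. The study's title places both proteins on 1 axis with TGF-beta, so the comparisons ask how the pathway's own components changed when either protein was depleted. How many hairpins were used per target, and whether lines were clones or pools, is not given in the sources used here.

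TGF-beta is made as a precursor whose propeptide stays wrapped around the mature dimer, and this latent complex is tethered to the matrix by the latent TGF-beta binding proteins until integrins or proteases release it. The freed ligand binds the type II receptor TGFBR2, which recruits and phosphorylates the type I receptor TGFBR1, and TGFBR1 then phosphorylates SMAD2 and SMAD3. TGFBR3 (betaglycan) and ENG (endoglin) present ligand to these receptors, while BAMBI resembles a type I receptor without a kinase domain. In carcinoma cells the pathway is known for growth arrest as well as for epithelial-mesenchymal transition and invasion.

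All 3 ligand genes were higher in both knockdowns than in the control. TGFB1 rose 2.06-fold after PRMT5 knockdown and 2.19-fold after MEP50 knockdown, and TGFB2 rose 3.38-fold and 1.57-fold. The receptors moved in opposite directions: TGFBR1 rose slightly, whereas TGFBR2 and TGFBR3 fell, and the decoy BAMBI fell 3.12-fold and 2.72-fold. LTBP1 rose 2.18-fold after MEP50 knockdown but differed by less than the spread between libraries after PRMT5 knockdown, and LTBP3 rose modestly in both. In RNA from whole cultures, fewer cells of a type and less RNA per cell cannot be told apart.

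A gene was counted as changed when its p-value from edgeR's quasi-likelihood test, adjusted over all 14582 genes tested (Benjamini-Hochberg), was below 0.05. Of the 10 members 9 had enough reads to be tested, ENG being the exception. After PRMT5 knockdown 8 of the 9 passed, 5 higher and 3 lower, where 51.0% of all tested genes passed (26.1% higher and 24.9% lower). After MEP50 knockdown all 9 tested members passed, 6 higher and 3 lower, where 51.7% of all tested genes passed (26.5% higher and 25.2% lower). Between the knockdowns 6 of 9 passed, 3 higher and 3 lower after PRMT5 knockdown, where 39.7% of all tested genes passed (19.2% higher and 20.5% lower). Passing the test was thus common in these libraries, so the sizes of the changes say more about the members than the calls do. A change of at least 2-fold that also passed was seen for 5 members after PRMT5 knockdown (TGFB1, TGFB2, TGFB3, TGFBR3 and BAMBI), where 7.25% of all tested genes had one. The same held for 4 members after MEP50 knockdown (TGFB1, TGFBR3, BAMBI and LTBP1; 7.51% of all tested genes) and for TGFB2 and LTBP1 between the knockdowns (3.19%). The median log2 fold change of the tested members was 0.19, 0.51 and -0.05 in these comparisons, and that of all tested genes lay within 0.00323 of 0 in each. Both knockdowns were measured against the same control libraries, so the first 2 counts are not independent. Because the members were chosen with earlier results of these data known, their shares beside those of all tested genes are descriptions only.

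The log2 fold changes of all 9 tested members are drawn with their 95% intervals, so that the opposite movements of the ligands and of TGFBR2, TGFBR3 and BAMBI can be seen together.

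**Figure D1:**
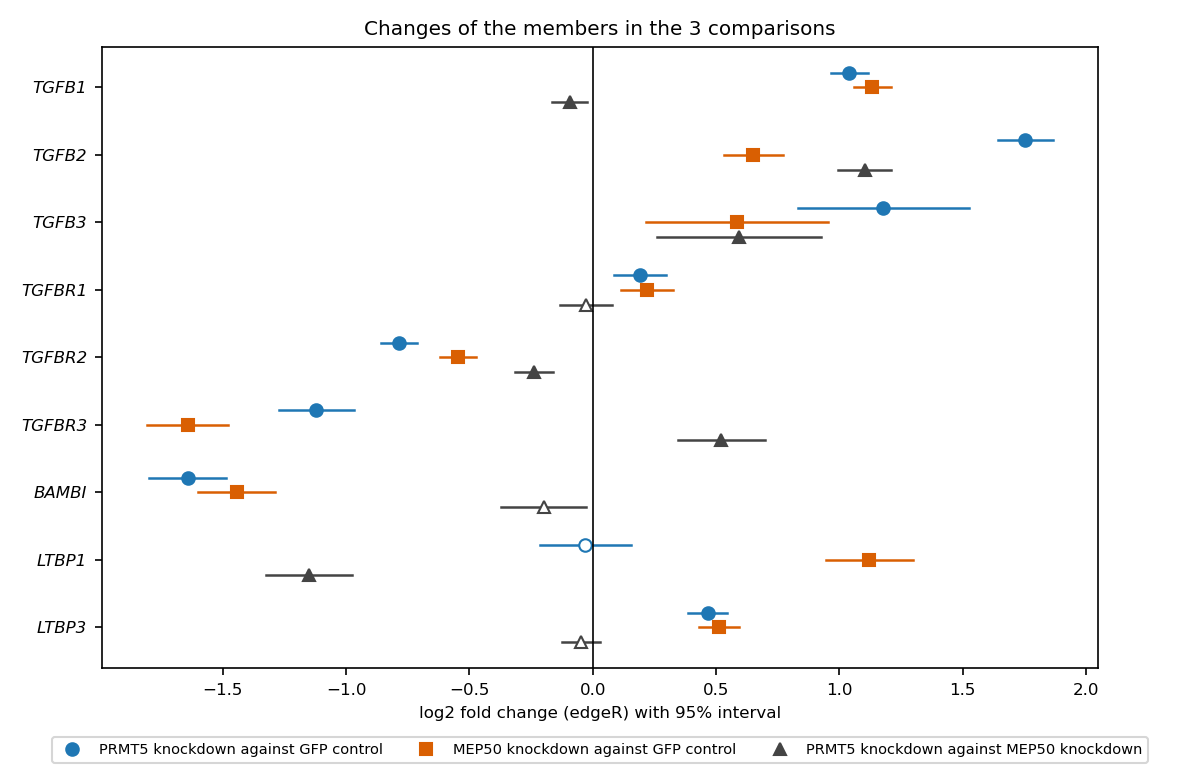
Log2 fold changes (x axis, edgeR) of the 9 tested members (y axis) in the 3 comparisons, with lines for the 95% interval (1.96 standard errors to each side); filled symbols passed an adjusted p of 0.05 and open ones did not. The 3 ligands lie right of 0 in both knockdowns, TGFBR2, TGFBR3 and BAMBI lie left of 0, and LTBP1 lies at 0 only after PRMT5 knockdown.

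Both targets were depleted in their own libraries. PRMT5 fell to 33.1% of its control level after PRMT5 knockdown (208.5 ± 3.17 to 68.9 ± 1.33 CPM, a library's counts scaled to a total of 1000000; SD, n = 3). WDR77 fell to 31.8% after MEP50 knockdown (39.4 ± 0.225 to 12.5 ± 1.58 CPM; SD, n = 3). Libraries held 20806181 to 31586128 reads on genes. The epithelial keratins of A549, KRT8 and KRT18, were abundant (3223 and 3195 CPM in the control), whereas EPCAM and KRT19, also on the list of 11 epithelial markers, had at most 7 reads in any library. The summed level of those 11 markers was 9918 to 10179 CPM in the control, 6732 to 6957 after PRMT5 knockdown and 7149 to 7583 after MEP50 knockdown. KRT8, KRT18, ALDH1A1 and AKR1C1 carried most of that sum, while CDH1, the epithelial cadherin, fell by 0.20 on the log2 scale after PRMT5 knockdown (edgeR adjusted p = 0.0131) and rose by 0.92 after MEP50 knockdown (edgeR adjusted p = 8.73e-14). KRT7 also rose after MEP50 knockdown (log2 0.74, edgeR adjusted p = 0.00170). ELF3 fell most among the tested epithelial markers, by log2 -1.59 after PRMT5 knockdown (edgeR adjusted p = 1.59e-23) and -1.02 after MEP50 knockdown (edgeR adjusted p = 1.88e-17). In the same order, KRT8 (log2 -0.63 and -0.74), KRT18 (-0.61 and -0.67), AKR1C1 (-1.31 and -0.36) and ALDH1A1 (-0.38 and -0.06) also passed and fell. MUC1 passed in neither knockdown. Summed markers of fibroblasts lay at 101.3 to 102.7, 211.4 to 222.7 and 255.0 to 272.3 CPM in the same order. Nearly all of that was the collagen gene COL3A1, 6 of the 9 markers had too few reads to test, and THY1 and FAP were at 0 in all 9 libraries. LUM, the matrix proteoglycan lumican and 1 of the 3 tested, went from 5.17 CPM in the control to 0.629 after PRMT5 knockdown (log2 -3.06, edgeR adjusted p = 2.01e-15) and 7.90 after MEP50 knockdown (log2 0.61, edgeR adjusted p = 0.000845). PDGFRA, the remaining tested marker, had only 0 to 15 reads per library. It rose after PRMT5 knockdown (log2 1.95, edgeR adjusted p = 0.0239) and after MEP50 knockdown (log2 2.73, edgeR adjusted p = 0.000822). The part of these shifts in the members' changes was not tested.

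The promoters of 3 members are printed because the results turn on them: TGFB1 was the most abundant ligand, TGFB2 rose most after PRMT5 knockdown, and BAMBI fell most there. Each is the 250 bases upstream of the start in the RefSeq table (GRCh38.p14), written in the direction of transcription, and all 10 members were matched there. Capitals mark matches on either strand to 4 short motifs: the GC box GGGCGG, the AP-1 element TGANTCA, the SMAD-binding element CAGAC and the TATA box TATAAA. In the sequences printed no match overlapped a match to another motif, and a match describes letters only, not a bound site.
TGFB1 promoter, chr19:41353923-41354172, minus strand: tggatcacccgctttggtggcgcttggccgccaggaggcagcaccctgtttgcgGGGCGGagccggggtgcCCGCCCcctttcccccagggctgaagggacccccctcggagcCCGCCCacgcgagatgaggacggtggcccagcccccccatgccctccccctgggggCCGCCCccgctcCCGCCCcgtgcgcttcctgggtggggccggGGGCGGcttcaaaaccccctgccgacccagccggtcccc
TGFB2 promoter, chr1:218345086-218345335, plus strand: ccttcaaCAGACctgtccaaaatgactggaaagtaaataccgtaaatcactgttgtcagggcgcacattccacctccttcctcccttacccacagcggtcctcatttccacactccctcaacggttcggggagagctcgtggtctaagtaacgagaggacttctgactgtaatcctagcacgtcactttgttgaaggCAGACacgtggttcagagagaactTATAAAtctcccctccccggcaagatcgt
BAMBI promoter, chr10:28677271-28677520, plus strand: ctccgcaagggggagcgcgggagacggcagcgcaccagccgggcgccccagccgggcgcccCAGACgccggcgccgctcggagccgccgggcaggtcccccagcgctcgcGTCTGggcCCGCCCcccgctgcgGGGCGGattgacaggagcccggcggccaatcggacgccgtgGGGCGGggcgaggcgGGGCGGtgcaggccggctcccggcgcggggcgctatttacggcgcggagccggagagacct

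The TGFB1 sequence held 6 GC boxes and none of the other motifs, and 76.8% of its bases were G or C. The TGFB2 sequence held no GC box, 2 CAGAC matches and a TATA box close to its 3′ end, and its G and C share was 50.4%. The BAMBI sequence held 4 GC boxes and 2 CAGAC matches at 81.2% G and C. Over all 35116 promoters of the same length, GGGCGG was found in 42.6%, CAGAC in 38.0%, TATAAA in 10.7% and TGANTCA in 6.57%, with a median G and C share of 58.0%. TGFB1 and TGFB2 had none of the 4 motifs in common in these windows. TGFB3, the third ligand that rose, had 2 promoter entries, which are not printed here. Entry 1 held 2 CAGAC matches and entry 2 a TATA box, each a motif that TGFB2 also held.

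TGFB1 encodes the most widely expressed of the ligands. Its level was 106.7, 111.6 and 119.1 CPM in the control libraries, 237.0, 225.0 and 233.2 CPM after PRMT5 knockdown, and 238.6, 262.3 and 240.2 CPM after MEP50 knockdown. Every knockdown library lay far above every control library, and no 2 groups overlapped. The log2 fold change was 1.04 ± 0.0377 (SE) after PRMT5 knockdown (edgeR adjusted p = 1.44e-23) and 1.13 ± 0.0379 after MEP50 knockdown (edgeR adjusted p = 1.50e-24). Between the knockdowns it was -0.09 ± 0.0362 (edgeR adjusted p = 0.0404), a difference of 1.07-fold that did not pass in 6 of the 17 alternative analyses. Without MEP50 knockdown library 2, the highest of the 9, that log2 fold change was -0.06 (edgeR adjusted p = 0.258). It also did not pass without PRMT5 knockdown library 2 (-0.07, edgeR adjusted p = 0.192), without control library 2 (-0.09, edgeR adjusted p = 0.0574), with library totals, with DESeq2 or with no low-count filter.

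In GENCODE 29, exons of TGFB1 share 215 bases (6.64% of its exon sequence) with HNRNPUL1, a gene on the opposite strand. The libraries were stranded, but the strand setting of the counting is not given in the sources used here, so reads in the shared bases may have been counted for either gene or set aside as ambiguous. HNRNPUL1, an RNA-binding protein of the hnRNP family, was also the gene whose log2 CPM followed TGFB1 most closely over the 9 libraries (Pearson r = 0.9974, compared over 12679 genes of mean CPM 1 or more). The next were HMGB3 (0.9969), ANKRD50 (0.9968), EPHB2 (0.9967) and RIN2 (0.9964). These correlations share libraries and 3 group means, and 1207 of those genes (9.52%) had r above 0.9, so a high value was common. The likeness was in pattern, not in size: the log2 fold changes of EPHB2 were 3.54 and 3.84 in the PRMT5 and MEP50 knockdowns, and those of HNRNPUL1 were 0.53 and 0.59.

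TGFB2 encodes a ligand that binds TGFBR2 weakly unless betaglycan presents it. Its level was 22.9, 21.4 and 22.1 CPM in the control, 72.5, 74.1 and 77.2 CPM after PRMT5 knockdown, and 36.0, 32.4 and 35.6 CPM after MEP50 knockdown. The 3 groups were fully separate, with the MEP50 knockdown between the control and the PRMT5 knockdown. The log2 fold change was 1.76 ± 0.0568 after PRMT5 knockdown (edgeR adjusted p = 1.22e-26) and 0.65 ± 0.0613 after MEP50 knockdown (edgeR adjusted p = 6.38e-12). The difference between the knockdowns was itself past the threshold at 1.10 ± 0.0549 (edgeR adjusted p = 1.14e-19), 2.15-fold. TGFB2-AS1, a long noncoding RNA named for this locus, had 4 to 27 reads per library, and its means were 0.374, 0.804 and 0.464 CPM in the control, PRMT5 and MEP50 groups. At these low counts it passed after PRMT5 knockdown (log2 1.08 ± 0.421, edgeR adjusted p = 0.0303). After MEP50 knockdown it did not pass (log2 0.31 ± 0.472, edgeR adjusted p = 0.614). In GENCODE 29, TGFB2 shares 26.6% of its exon sequence with TGFB2-OT1 on the same strand, which is not among the genes of the count table.

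TGFB3 encodes the third ligand and was the scarcest, with 203 reads in all control libraries together, 489 after PRMT5 knockdown and 263 after MEP50 knockdown. Its level was 2.27, 2.29 and 2.83 CPM in the control, 6.31, 6.06 and 4.45 CPM after PRMT5 knockdown, and 3.43, 3.32 and 4.26 CPM after MEP50 knockdown. The groups did not overlap, although PRMT5 knockdown library 3 and MEP50 knockdown library 3 nearly met. On the log2 scale the change was 1.18 ± 0.176 after PRMT5 knockdown (edgeR adjusted p = 3.97e-07) and 0.59 ± 0.189 after MEP50 knockdown (edgeR adjusted p = 0.00866). The latter rested on MEP50 knockdown library 3: without it the log2 fold change was 0.44 (edgeR adjusted p = 0.0878), and its adjusted p over all alternatives ran from 0.00620 to 0.0878. Between the knockdowns the log2 fold change was 0.59 ± 0.170 (edgeR adjusted p = 0.00483).

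**Figure D2:**
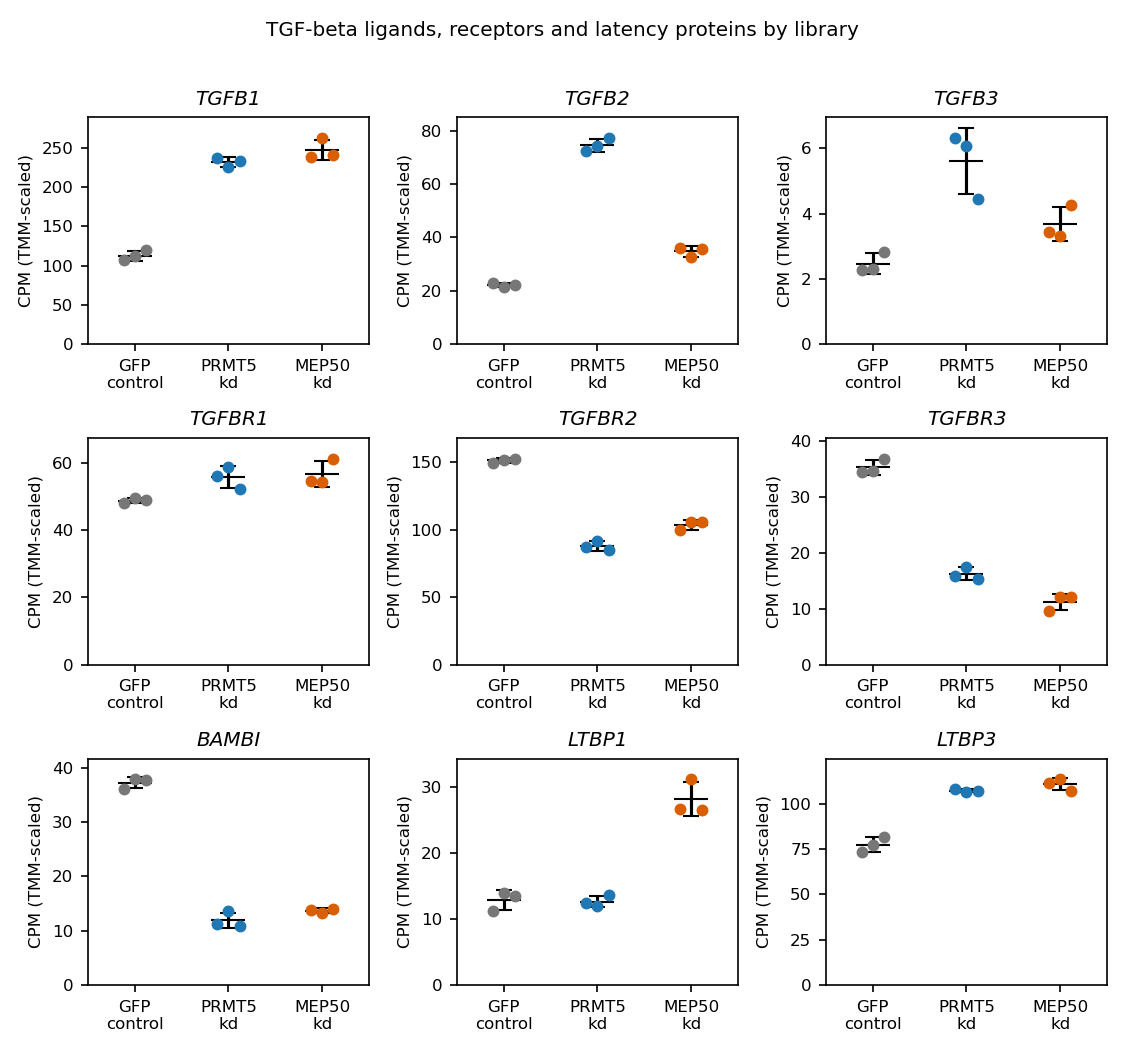
Level of each tested member in every library (y axes from 0, TMM-scaled CPM; groups on the x axes, kd for knockdown); points are libraries, and black bars are the mean and SD of 3. TGFB1 sits between 106.7 and 119.1 CPM in the control and between 225.0 and 262.3 in the knockdowns, and LTBP1 is high only in the MEP50 knockdown libraries (26.5 to 31.1 CPM).

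To set the ligands against each other, CPM were divided by the length of the merged exons in kilobases (kb). The 3 ligands summed to 39.5 ± 1.93 CPM per kb in the control, 87.2 ± 1.83 after PRMT5 knockdown and 83.8 ± 3.65 after MEP50 knockdown (SD, n = 3). TGFB1 supplied most of the sum in every library, and the knockdowns moved its share to opposite sides. TGFB1 made up 87.8 ± 0.725% of the sum in the control, 82.1 ± 0.522% after PRMT5 knockdown and 91.0 ± 0.893% after MEP50 knockdown. TGFB2 made up 10.9 ± 0.776%, 16.6 ± 0.631% and 8.06 ± 0.786% in the same order, and the library ranges of its share did not overlap between any 2 groups. TGFB3 was near 1% of the sum (1.27 ± 0.101%, 1.31 ± 0.243% and 0.895 ± 0.149%), and with the longest transcript as length its share was 1.98, 2.06 and 1.40%. With 3 libraries against 3, an exact two-sided permutation test of a share cannot go below 0.10, so the shares are given as descriptions.

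**Figure D3:**
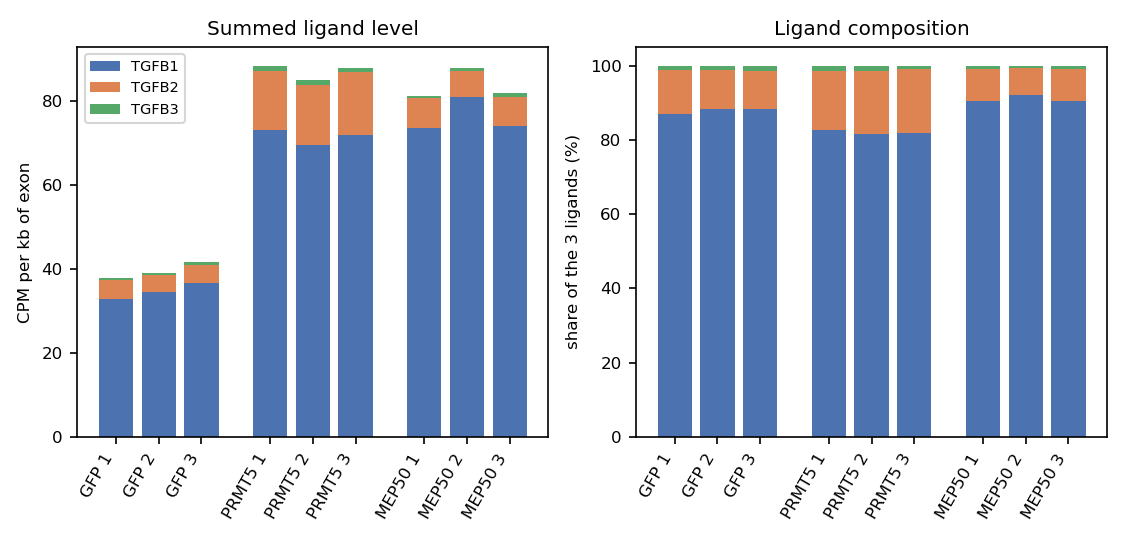
Ligand levels per kilobase of exon in every library, stacked as the sum (left, CPM per kb) and as shares of the sum (right, percent); colours are the 3 ligand genes. The sum lies at 37.9 to 41.6 CPM per kb in the control libraries and at 81.4 to 88.5 in the knockdown libraries, and the TGFB2 share is widest after PRMT5 knockdown.

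TGFBR1 encodes the type I receptor, the kinase that phosphorylates SMAD2 and SMAD3. Its level was 47.9, 49.4 and 48.9 CPM in the control, 56.0, 58.8 and 52.3 CPM after PRMT5 knockdown, and 54.6, 54.2 and 61.2 CPM after MEP50 knockdown. All knockdown libraries lay above all controls, but only a little, and the knockdowns overlapped each other. On the log2 scale it rose by 0.19 ± 0.0535 after PRMT5 knockdown (edgeR adjusted p = 0.00262) and 0.22 ± 0.0544 after MEP50 knockdown (edgeR adjusted p = 0.000734). Between the knockdowns it was -0.03, with a 95% interval from -0.13 to 0.08 (edgeR adjusted p = 0.713).

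TGFBR2 encodes the type II receptor that binds ligand first. Its level was 149.7, 152.0 and 152.8 CPM in the control, 87.0, 91.7 and 85.2 CPM after PRMT5 knockdown, and 99.6, 105.4 and 106.0 CPM after MEP50 knockdown. The groups were separate, with the PRMT5 knockdown lowest. Its log2 fold change was -0.78 ± 0.0376 after PRMT5 knockdown (edgeR adjusted p = 7.33e-21) and -0.55 ± 0.0378 after MEP50 knockdown (edgeR adjusted p = 8.49e-16). The PRMT5 knockdown was lower than the MEP50 knockdown by 1.18-fold (log2 -0.24 ± 0.0388, edgeR adjusted p = 3.43e-06). Because TGFBR1 and TGFBR2 moved apart, their ratio per kb of exon changed: TGFBR2 stood at 4.52 ± 0.0402 times TGFBR1 in the control, 2.30 ± 0.0616 times after PRMT5 knockdown and 2.67 ± 0.156 times after MEP50 knockdown (SD, n = 3).

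TGFBR3 encodes betaglycan, the co-receptor that presents TGFB2 in particular. Its level was 34.4, 34.6 and 36.9 CPM in the control, 15.9, 17.5 and 15.3 CPM after PRMT5 knockdown, and 9.62, 12.11 and 12.05 CPM after MEP50 knockdown. The control was highest, as for TGFBR2, but the knockdowns changed places, since here the MEP50 knockdown was lowest in all 3 libraries. The log2 fold change was -1.12 ± 0.0780 after PRMT5 knockdown (edgeR adjusted p = 1.18e-15) and -1.64 ± 0.0842 after MEP50 knockdown (edgeR adjusted p = 6.49e-20). Between the knockdowns it was 0.52 ± 0.0895, higher after PRMT5 knockdown (edgeR adjusted p = 8.05e-06). Per kb of exon, TGFBR3 was 0.126 of TGFBR2 in the control, 0.0997 after PRMT5 knockdown and 0.0586 after MEP50 knockdown. With the longest transcript of each gene as length this ratio was higher in each group (0.167, 0.132 and 0.0775), in the same order.

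ENG encodes endoglin, the co-receptor best known from endothelial cells, and it was at or under the limit of detection. A single read was counted in PRMT5 knockdown library 1 and none in the other 8 libraries, so no test or fold was possible. The limit that a count of 0 allows, 3 reads, was 0.0947 to 0.145 CPM depending on the library, and covers counting error only. The defining endothelial genes were likewise scarce: of 10 listed markers 9 were matched, CLDN5 and EMCN were at 0, and CDH5, VWF, KDR, TEK, TIE1 and ROBO4 had at most 7 reads in any library. The summed endothelial level was 6.19 to 7.18 CPM in the control, 17.3 to 18.5 after PRMT5 knockdown and 15.8 to 17.3 after MEP50 knockdown, nearly all of it from ESAM, a junction gene. The part of that rise in the members' changes was not tested.

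BAMBI encodes the decoy that resembles a type I receptor and lowers signalling through TGFBR1. Its level was 36.1, 37.9 and 37.8 CPM in the control, 11.3, 13.5 and 10.9 CPM after PRMT5 knockdown, and 13.8, 13.2 and 14.1 CPM after MEP50 knockdown. Every knockdown library was far below every control, while the knockdowns overlapped through PRMT5 knockdown library 2. Its log2 fold change was -1.64 ± 0.0789 after PRMT5 knockdown (edgeR adjusted p = 7.90e-21) and -1.44 ± 0.0799 after MEP50 knockdown (edgeR adjusted p = 8.02e-19). Between the knockdowns it was -0.20, with a 95% interval from -0.37 to -0.03 that is not adjusted for the number of genes, and it did not pass (edgeR adjusted p = 0.0697). Without PRMT5 knockdown library 2 it was -0.30 and passed (edgeR adjusted p = 0.0109). BAMBI stood at 2.26 ± 0.0308 times TGFBR1 per kb of exon in the control, and at 0.631 ± 0.0439 and 0.716 ± 0.0342 times after PRMT5 and MEP50 knockdown (SD, n = 3). The decoy was thus the more abundant transcript of the pair in the control libraries and the less abundant in both knockdowns.

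LTBP1 encodes a matrix protein that binds the latent complex and holds it for integrins to open. Its level was 11.13, 13.96 and 13.47 CPM in the control, 12.3, 11.9 and 13.6 CPM after PRMT5 knockdown, and 26.7, 31.1 and 26.5 CPM after MEP50 knockdown. The MEP50 knockdown libraries stood apart, and the other two groups overlapped. The log2 fold change was 1.12 ± 0.0895 after MEP50 knockdown (edgeR adjusted p = 6.27e-14). After PRMT5 knockdown it was -0.03 with a 95% interval from -0.22 to 0.16 (edgeR adjusted p = 0.818). The knockdowns differed directly, by -1.15 ± 0.0891 on the log2 scale, lower after PRMT5 knockdown (edgeR adjusted p = 7.28e-14). LTBP1 and TGFB2 were therefore the members on which the knockdowns differed by more than 2-fold, in opposite directions.

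LTBP3 encodes a family member that binds latent TGFB1. Its level was 73.6, 77.3 and 81.5 CPM in the control, 108.0, 106.6 and 106.9 CPM after PRMT5 knockdown, and 111.6, 113.6 and 107.1 CPM after MEP50 knockdown. Both knockdowns lay above the control and overlapped each other. Its log2 fold change was 0.47 ± 0.0404 after PRMT5 knockdown (edgeR adjusted p = 6.94e-13) and 0.51 ± 0.0409 after MEP50 knockdown (edgeR adjusted p = 6.22e-14). Between the knockdowns it was -0.05, with a 95% interval from -0.12 to 0.03 (edgeR adjusted p = 0.379). The ratio of LTBP1 to LTBP3 per kb was 0.233 ± 0.0206 in the control, 0.165 ± 0.0113 after PRMT5 knockdown and 0.356 ± 0.0258 after MEP50 knockdown (SD, n = 3). With the longest transcript of each gene as length the ratio was lower in each group (0.116, 0.0826 and 0.178), in the same order. The remaining family members, LTBP2 and LTBP4, were named after their values were seen. Both passed the test in both knockdowns, LTBP2 at 0.64 ± 0.133 and 0.60 ± 0.136 and LTBP4 at 0.69 ± 0.0441 and 0.66 ± 0.0448 on the log2 scale in the PRMT5 and MEP50 knockdowns.

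Per kb of exon, the order of the members in the control was TGFB1 (34.7 ± 1.93 CPM per kb), TGFBR2 (32.2 ± 0.342), BAMBI (16.1 ± 0.445), LTBP3 (7.52 ± 0.382), TGFBR1 (7.12 ± 0.109), TGFB2 (4.30 ± 0.153), TGFBR3 (4.06 ± 0.156), LTBP1 (1.75 ± 0.206) and TGFB3 (0.501 ± 0.0636). Neighbours in this order overlapped for LTBP3 with TGFBR1 and for TGFB2 with TGFBR3. LTBP3 depends on the length used: with its longest transcript in place of the merged exons it stood at 17.4 CPM per kb, apart from TGFBR1 (7.48), and TGFBR3 (5.46) then stood above TGFB2 (4.38). TGFB1 and TGFBR2 were close in the control, whereas TGFB1 reached 71.6 ± 1.89 against 18.7 ± 0.716 CPM per kb for TGFBR2 after PRMT5 knockdown, and 76.3 ± 4.08 against 22.04 ± 0.752 after MEP50 knockdown. TGFB2 held rank 3 after PRMT5 knockdown (14.5 ± 0.468 CPM per kb), above LTBP3, TGFBR1 and BAMBI, but with the longest transcript as length it held rank 4, under LTBP3 (14.8 against 24.1 CPM per kb). BAMBI, at rank 3 in the control, was at rank 6 in both knockdowns. With the longest transcript it was at rank 5 after MEP50 knockdown, overlapping TGFB2 (7.26 ± 0.222 against 6.87 ± 0.388 CPM per kb), and still at rank 6 after PRMT5 knockdown. With merged exons, the other neighbours that overlapped were TGFBR3 and LTBP1 after PRMT5 knockdown.

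The highest DESeq2 adjusted p in either of the authors' deposited comparison tables was 0.04996, so they list only genes under such a limit. They held 9 of the 10 members for the MEP50 knockdown and 8 for the PRMT5 knockdown, where LTBP1 and ENG were not listed. The DESeq2 log2 fold changes in the authors' deposited table for PRMT5 knockdown were 1.03 for TGFB1, 1.73 for TGFB2 and -1.60 for BAMBI. In the authors' deposited table for MEP50 knockdown they were 1.13 for TGFB1, 0.64 for TGFB2, -1.41 for BAMBI and 1.09 for LTBP1. For TGFB3 the DESeq2 columns of the authors' deposited tables gave 1.03 and 0.50, and their edgeR columns gave 1.18 and 0.59.

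Other genes of the pathway were read from lists. These too were chosen with earlier results of these data known, so their shares are descriptions only. Of 22 genes for latency and activation, 12 had enough reads. Of these 6 rose and 4 fell after PRMT5 knockdown, and 6 rose and 3 fell after MEP50 knockdown, with medians of 0.06 and 0.12 on the log2 scale. These calls were 83.3% and 75.0% of the tested genes of the list, where 51.0% and 51.7% of all tested genes passed. PLAU, the urokinase that cuts plasminogen to plasmin, rose 4.01-fold after PRMT5 knockdown and 1.96-fold after MEP50 knockdown (28.3 ± 2.27, 113.7 ± 0.326 and 55.7 ± 2.42 CPM in the control, PRMT5 and MEP50 groups). ITGB6, the beta subunit of an integrin that opens latent TGF-beta, rose 1.86-fold and 1.87-fold. ITGAV, its alpha partner, named after its values were seen, fell by 0.69 after PRMT5 knockdown (edgeR adjusted p = 1.37e-19) and by 0.86 after MEP50 knockdown (edgeR adjusted p = 3.03e-22) on the log2 scale. FURIN, the protease that cuts the TGF-beta precursor, fell by 0.81 after PRMT5 knockdown and rose by 0.19 after MEP50 knockdown on the log2 scale. The knockdowns differed on it directly (log2 -0.996 ± 0.0469, edgeR adjusted p = 8.33e-19). FBN1, the fibrillin to which latency proteins attach, rose 1.43-fold after PRMT5 knockdown and 2.21-fold after MEP50 knockdown.

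Among 13 genes for extracellular binders, 8 had enough reads. Of these 4 rose and none fell after PRMT5 knockdown, and 5 rose and 2 fell after MEP50 knockdown (medians 0.28 and 0.29). The calls were 4 of 8 tested binders, a share near the 51.0% of all tested genes that passed after PRMT5 knockdown, and the 7 after MEP50 knockdown were 87.5%, beside 51.7%. NRP2 and NRP1, neuropilins that also bind TGF-beta, rose 4.76-fold and 1.45-fold after PRMT5 knockdown, and 5.52-fold and 1.34-fold after MEP50 knockdown. HTRA1, a secreted serine protease, rose 1.58-fold and 2.32-fold. FST, the activin binder follistatin, stood at 2.18 ± 0.158 CPM in the control, 2.16 ± 0.754 after PRMT5 knockdown and 5.47 ± 0.449 after MEP50 knockdown, and passed the test in the latter. Of 10 other type I and type II receptors of the superfamily, 7 had enough reads. After PRMT5 knockdown 1 rose and 2 fell, and after MEP50 knockdown 2 rose and 3 fell (medians -0.06 and -0.15). That was 42.9% of the tested receptors after PRMT5 knockdown, below the 51.0% of all tested genes, and 71.4% after MEP50 knockdown, beside 51.7%. DESeq2 and the analysis with no low-count filter each called 5 of these receptors after PRMT5 knockdown in place of 3. ACVR1, a type I receptor for bone morphogenetic proteins and activin, rose 1.53-fold and 1.30-fold. The activin receptors ACVR1B and ACVR2B fell by 0.46 and 0.47 after PRMT5 knockdown and by 0.32 and 0.59 after MEP50 knockdown on the log2 scale. ACVR1 after PRMT5 knockdown kept its call in every alternative. ACVR1 after MEP50 knockdown did not pass without control library 2 (edgeR adjusted p = 0.0827, log2 0.32) or MEP50 knockdown library 1 (0.103, log2 0.28). ACVR2B after PRMT5 knockdown did not pass without control library 3 (edgeR adjusted p = 0.0676, log2 -0.44), PRMT5 knockdown library 2 (0.104, log2 -0.39) or PRMT5 knockdown library 3 (0.0590, log2 -0.45), and after MEP50 knockdown it did not pass without MEP50 knockdown library 1 (0.0619, log2 -0.42).

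All 20 listed SMAD transducers and regulators had enough reads. Of these 9 rose and 3 fell after PRMT5 knockdown, and 12 rose and 4 fell after MEP50 knockdown (medians 0.04 and 0.16). That was 12 of 20 and 16 of 20, beside 51.0% and 51.7% of all tested genes. SKI, a SMAD co-repressor, rose 1.69-fold and 1.77-fold, and SMURF2, a ubiquitin ligase for receptors and SMADs, 1.51-fold and 1.47-fold. TGIF2, another co-repressor, rose 1.72-fold and 1.38-fold, and ZFYVE9, which anchors SMADs for the receptor, 1.35-fold and 1.52-fold. SMAD2 and TGIF1, named after their values were seen, were among those that fell in both knockdowns. On the log2 scale SMAD2 fell by 0.38 and 0.50, and TGIF1 by 0.57 and 0.32. Of 25 direct TGF-beta targets 22 had enough reads, and 14 rose in each knockdown while 6 fell after PRMT5 knockdown and 5 after MEP50 knockdown (medians 0.28 and 0.57). Of the tested targets 90.9% and 86.4% passed, where 51.0% and 51.7% of all tested genes did (26.1% and 26.5% were called higher). SERPINE2 rose 4.20-fold and 5.33-fold, PMEPA1 1.97-fold and 2.95-fold, and FN1, the matrix protein fibronectin, 2.60-fold and 2.79-fold. Other targets, named after their values were seen, did not rise. SMAD7 did not pass in either knockdown (log2 0.04 and 0.08). ID1 and ID3 fell by 0.98 and 0.99 after PRMT5 knockdown and by 0.28 and 0.33 after MEP50 knockdown on the log2 scale. The list does not say whether TGF-beta raises or lowers each target, so a rise or fall is not read as more or less signalling. PDGFB rose 4.98-fold after PRMT5 knockdown from a control of 59 reads in all, and TAGLN, a cytoskeletal target, fell by 1.44 on the log2 scale from a control of 150 reads in all. These medians stand beside 0.00 for all tested genes, and SKIL, SMAD7 and LTBP2 were each on 2 of the lists.

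**Figure D4:**
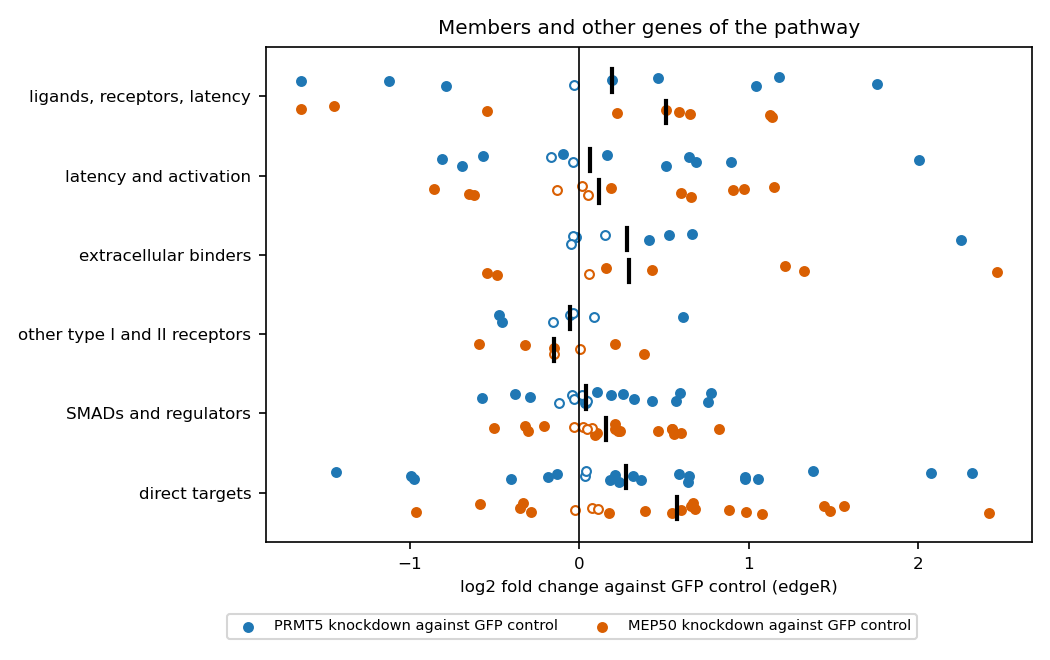
Log2 fold changes against the GFP control (x axis, edgeR) of the members and of the genes with enough reads in 5 lists of the pathway (rows), with points for genes, vertical spread within a row only for legibility, and black bars for the median. Filled points passed an adjusted p of 0.05 and open points did not; the direct targets have the highest median after MEP50 knockdown among the 5 lists (0.57).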

How the data were processed

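RNA of A549 cells had been sequenced after rRNA depletion with a stranded protocol, per the labels' protocols. The authors deposited 1 table of raw counts, given by Ensembl gene and library and made with Trim Galore, STAR and HTSeq on hg19, per the submitters' processing notes; the versions and the strand setting are not given in the sources used here. The authors' deposited comparison tables held log2 fold changes and adjusted p-values or false discovery rates from DESeq2 and edgeR, per the file headers. A Wald statistic of DESeq2 in the same deposited tables, a score, was not used.

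Counts were grouped by the labels and fitted in edgeR 4.0.16 (R 4.3.3) with all 9 libraries and no covariate besides the group, using TMM scaling, filterByExpr (14582 of 51796 genes), robust quasi-likelihood tests and Benjamini-Hochberg adjustment at 0.05 over all tested genes. The 5 HTSeq summary lines were left out of library sizes. Of the reads on genes and in those 5 lines together, reads on no gene made up 11.9 to 14.5% and ambiguous ones 2.28 to 2.39%. CPM are TMM-scaled, and each SE is the size of the log2 fold change divided by the root of its F statistic. Depth was 20806181 to 31586128 reads on genes per library, and the biological coefficient of variation was 0.0395. Lengths for levels per kb came from GENCODE 29 (GRCh38), promoters from RefSeq. The code was tested on simulated data.

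The members and lists were chosen with earlier results of these data known. From each list up to 3 called genes with the largest changes and a mean of at least 1 CPM were named per knockdown. ITGB3 and PECAM1, which no identifier matched, were not analysed here. Alternatives were other scalings, DESeq2 1.42.0, other filters, a replicate block, fits restricted to 6 libraries, leaving out each library, and the longest transcript as length.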

Additional observations from a re-analysis of the deposited data

How the results depend on the processing

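Of the 27 log2 fold changes of members, 24 kept their call in all 17 alternatives, and none that passed changed sign. TGFB1 between the knockdowns did not pass with library totals (log2 -0.0709), DESeq2 (-0.0950) or no low-count filter (-0.0820), and ran from -0.127 to -0.0571 with 1 library left out. Leaving out 1 library moved TGFB3 in the MEP50 knockdown between 0.444 and 0.697, and BAMBI between the knockdowns between -0.304 and -0.141. Members changed by at least 2-fold after PRMT5 knockdown numbered 4 without control library 1, where TGFB1 stood just under that fold, and otherwise 5. Of the other type I and type II receptors, 5 passed after PRMT5 knockdown with DESeq2 and 5 with no low-count filter (main 3), and between the knockdowns 1 to 2 passed with 1 library left out (2 without PRMT5 knockdown library 3 or MEP50 knockdown library 1). The remaining counts for the members and lists stayed within 1.5 times. For the pathway genes named by the rule and for LTBP2 and LTBP4, 39 of 44 changes against the control kept their call in every alternative. ACVR1, PDGFB and TAGLN after MEP50 knockdown and ACVR2B after both lost it only with 1 library left out. With the longest transcript as length, the TGFB2 share of the ligands was 9.56, 14.7 and 7.07% in the control, PRMT5 and MEP50 groups, in the same order as before. The replicate number as a block gave 8, 9 and 6 members called, as without it, and changed no member's call; deviations of same-numbered libraries correlated at -0.0361 to 0.0517, so the numbers were not taken to pair the libraries. Depth limits TGFB3, with 57 to 188 reads per library, and ENG. The cause of these shifts was not tested.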
